A study of Mus musculus with 6 samples.

Results

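The ISG15 conjugation pathway was examined through 5 genes picked by symbol for their roles: the modifier Isg15, the activating enzyme Uba7, the conjugating enzyme Ube2l6, the ligase Herc6 and the protease Usp18. All 5 were found, each in 1 row, among the 56691 genes of the deposited table, and all 5 passed the filter on low counts that left 14113 genes for testing. The samples are mouse macrophages derived from bone marrow with the growth factor M-CSF, co-cultured with mEC25 cells, sorted and profiled by RNA sequencing. In the contact group (3 libraries) the macrophages shared a dish with mEC25 cells and could touch them, and in the transwell group (3 libraries) they were kept apart in an indirect co-culture. M-CSF and mEC25 cells were common to both groups. The labels call mEC25 a cancer cell line. They give no strain, age or genotype, no culture time and no sorting gate, nor do they tell whether the replicates are different animals or cultures. The p-values therefore measure the spread between these libraries, which may be technical.

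ISG15 is a small protein made of a pair of ubiquitin-like folds. It is attached to other proteins through a cascade like that of ubiquitin: the E1 enzyme UBA7 activates it, the E2 enzyme UBE2L6 carries it, and a ligase, HERC6 in the mouse, transfers it to the target. USP18 removes it again, and, separately from this protease activity, USP18 binds the interferon receptor chain IFNAR2 together with STAT2 and dampens signalling by type I interferon. Genes of this cascade are induced by type I interferon in macrophages and many other cells, through the transcription factor complex ISGF3, to which STAT2 and IRF9 belong.

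The promoter of the modifier gene holds letters of the element that ISGF3 is known to bind. Isg15 (ENSMUSG00000035692) lies on chromosome 4, 156199424 to 156200818 on the minus strand of GRCm38 per GENCODE M21, and is protein-coding with 2 exons. The 250 bases before its RefSeq start (chr4:156200819-156201068, minus strand, GRCm38.p6) are given because they hold a run of interferon response motifs. Capitals mark every match to GAAANNGAAA, the core of the interferon-stimulated response element, searched on both strands.
Isg15 promoter: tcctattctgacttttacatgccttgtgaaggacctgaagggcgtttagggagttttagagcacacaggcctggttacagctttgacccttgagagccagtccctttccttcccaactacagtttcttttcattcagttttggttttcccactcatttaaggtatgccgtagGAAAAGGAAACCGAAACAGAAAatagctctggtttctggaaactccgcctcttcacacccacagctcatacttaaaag

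The capitals hold 3 matches that overlap each other, which begin at positions -78, -72 and -66 from the start. At least 1 match was present in 3.44% of the 32851 promoter windows of 300 bases in the RefSeq table, and 3 or more in 5 windows (0.0152%). Windows were available for 4 of the 5 members. Those of Uba7, Ube2l6 and Herc6 had no match to GAAANNGAAA, and that of Uba7 had 1 match, at position -27, to the looser AANNGAAA, which overlaps the stricter motif and occurred in 23.9% of all windows. The Uba7 stretch (chr9:107975530-107975559, plus strand, GRCm38.p6) is shown for comparison, with capitals at the match, which is on the minus strand. It lies inside the gene as GENCODE M21 draws it.
Uba7 stretch: ctcagtctagTTTCACTTttggtttcctga

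None of the 4 windows of the members held TTCNNNGAA, the core of the gamma-activated site, which 8.3% of all windows hold. A match is a string of letters and not a measured binding site.

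All 5 members were lower in contact than in transwell libraries. The falls were 4.96-fold for Usp18, 3.31-fold for Isg15, 2.98-fold for Ube2l6, 2.43-fold for Herc6 and 2.31-fold for Uba7. In edgeR's quasi-likelihood test over 14113 genes, 37.5% passed an adjusted p (Benjamini-Hochberg) of 0.05, 16.1% being lower and 21.4% higher in contact, and 2.38% were lower by at least 2-fold. All 5 members stood in that last class. The median log2 change of the 5 was -1.57, beside 0.03 over all genes tested. For each of the 5 the groups did not overlap, as was so for 51.2% of tested genes in either direction and for 15.3% in the lower one. These are bulk libraries, in which fewer cells of a type and less RNA per cell cannot be told apart.

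The modifier Isg15 had 31.84, 39.11 and 33.9 FPKM (reads scaled by exonic length and library total) in the contact libraries, against 121.65, 98 and 100.42 FPKM in the transwell libraries. The highest contact library stood well under the lowest transwell library. The means were 35 ± 3.75 FPKM in contact and 107 ± 13 FPKM in transwell libraries (SD, n = 3 each). The log2 change was -1.73 ± 0.12 (SE, edgeR adjusted p = 4.4e-06), from 505 to 575 counts per contact library and 1252 to 1616 per transwell library. The table also lists 5 predicted genes with ISG15 terms in their annotation, and none held more than 4 counts in a library, so few counts stood at such copies.

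Uba7, the E1 gene (ENSMUSG00000032596, chromosome 9, 107975505 to 107984060, plus strand), commits ISG15 to the cascade. It had 8.12, 7.17 and 7.61 FPKM in contact and 15.25, 17.19 and 16.44 FPKM in transwell libraries. The replicates of each group lay close together. Uba7 averaged 7.63 ± 0.475 FPKM in contact and 16.3 ± 0.978 FPKM in transwell libraries (SD, n = 3 each). Its log2 change was -1.21 ± 0.08 (SE, edgeR adjusted p = 4.9e-06). This was the smallest fall of the 5, though that of Herc6 was within its error.

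Ube2l6, the E2 gene (ENSMUSG00000027078, chromosome 2, 84798828 to 84810335, plus strand), had 28.18, 27.74 and 28.03 FPKM in contact libraries, against 84.45, 69.94 and 76.14 FPKM in transwell libraries. The contact libraries were nearly equal, with an SD of 0.224 FPKM, while the transwell libraries had an SD of 7.28 FPKM around 76.8. The log2 change was -1.57 ± 0.09 (adjusted p = 1.7e-06). Its closest relative, Ube2l3, which serves ubiquitin, had 42.67, 41.96 and 39.64 FPKM in contact and 46.91, 45.15 and 46.42 FPKM in transwell libraries. Its log2 change was -0.27 (adjusted p = 0.0094), a call that 5 of 20 alternative settings ended.

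Herc6, the ligase gene (ENSMUSG00000029798, chromosome 6, 57581000 to 57664632, plus strand), was the lowest of the 5 by level. It had 2.12, 2.45 and 2.61 FPKM in contact and 3.87, 6.7 and 5.54 FPKM in transwell libraries. The transwell libraries were spread, with replicate 1 lowest, yet no contact library reached it. The log2 change was -1.28 ± 0.18 (adjusted p = 0.00036), with the largest standard error among the members. It was -1.46 without transwell replicate 1 and -1.12 without transwell replicate 2. Herc6 shares 1269 exonic bases on its strand with Gm45193, a processed transcript, Uba7 shares 233 on its strand with the protein-coding Gm20661, and Usp18 shares 124 with Gm44148, a non-coding gene on the other strand. None of these 3 was tested, and the rule by which the authors counted shared reads is unknown here.

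Usp18, the protease and feedback gene (ENSMUSG00000030107, chromosome 6, 121245906 to 121270917, plus strand), fell the most. It had 5.59, 5.59 and 5.42 FPKM in contact libraries, against 27.77, 23.37 and 24.8 FPKM in transwell libraries. The contact values were nearly equal and lay far under each transwell value. The log2 change was -2.31 ± 0.10 (adjusted p = 4.4e-07), which placed Usp18 at rank 33 from the lowest change among 14113 genes, where Isg15 was at 96, Ube2l6 at 129, Herc6 at 207 and Uba7 at 229.

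**Figure D1:**
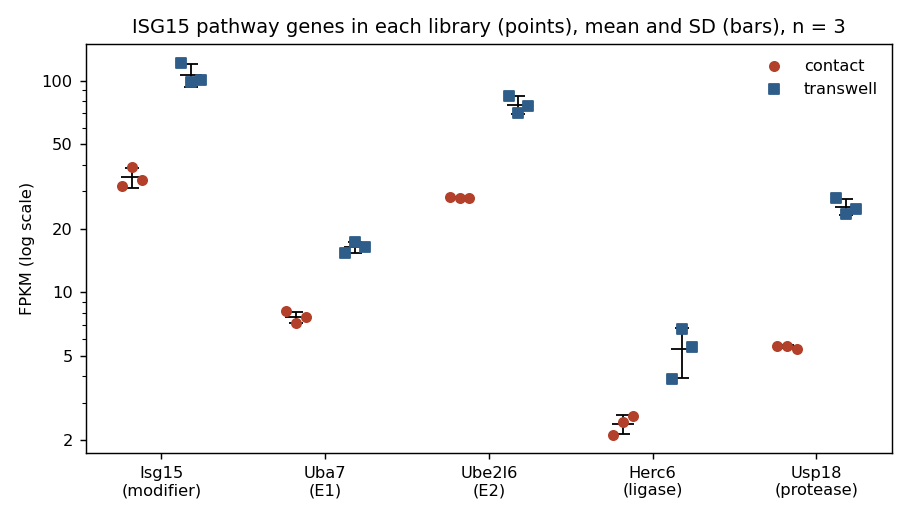
FPKM (log scale) of the 5 members in each library, contact left of transwell for every gene, with the mean and SD (n = 3). No contact point reaches the lowest transwell point of the same gene, and Usp18 lies above Uba7 in transwell but below it in contact libraries.

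The order of the members by level differed between the groups at 1 place. In contact libraries it ran Isg15, Ube2l6, Uba7, Usp18, Herc6, and in transwell libraries Isg15, Ube2l6, Usp18, Uba7, Herc6. In neither group did neighbours in that order overlap. So the E1 gene stood above the protease gene in every contact library, with FPKM ratios of Uba7 to Usp18 of 1.45, 1.28 and 1.4, and below it in every transwell library, with ratios of 0.549, 0.736 and 0.663. FPKM here rests on the exonic length of all annotated transcripts of a gene, which is 6692 bases for Uba7 and 2790 for Usp18, so the order across genes depends on those lengths, while a ratio compared between groups does not.

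Relative to the protease gene, all 4 other members were higher in contact libraries. That direction follows from Usp18 having the largest fall, and all 4 ratios share Usp18 as denominator. The modifier stood at 6.32 ± 0.653 times the FPKM of Usp18 in contact and 4.21 ± 0.166 times in transwell libraries (SD, n = 3 each). Ube2l6 stood at 5.06 ± 0.106 times Usp18 in contact and 3.03 ± 0.0404 times in transwell libraries, the tightest of these ratios. Herc6 stood at 0.433 ± 0.0517 times Usp18 in contact and 0.216 ± 0.0742 times in transwell libraries. On the log2 scale the changes of Isg15, Ube2l6, Herc6 and Uba7 were above that of Usp18 by 0.58, 0.73, 1.05 and 1.09. Each of these differences had an exact two-sided permutation p = 0.1, the smallest that 3 against 3 libraries allow, and 0.17 adjusted over the 10 pairs, so none could pass 0.05.

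**Figure D2:**
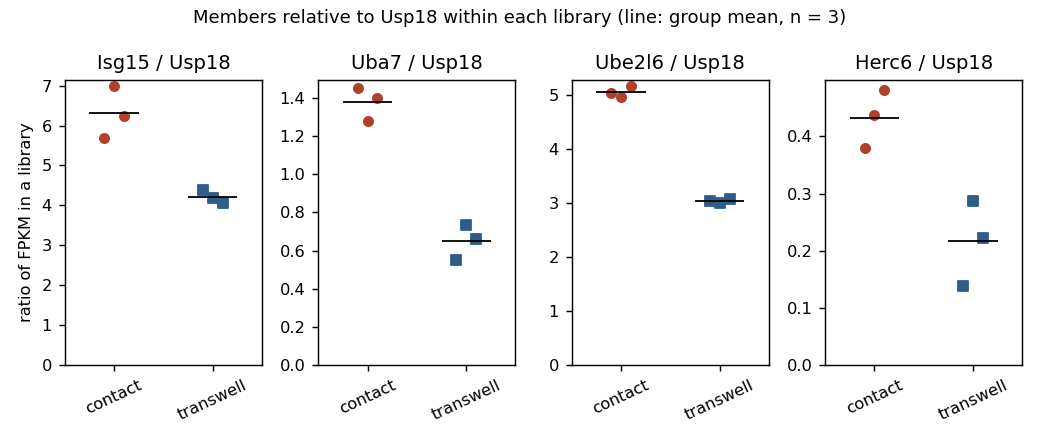
FPKM of Isg15, Uba7, Ube2l6 and Herc6 divided by that of Usp18 in the same library, contact left and transwell right, with group means as lines and each axis starting at 0. All 4 ratios are higher in each contact library than in any transwell library.

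Among the other pairs, 2 had ratios that did not overlap between groups. Isg15 changed by -0.51 relative to Uba7, and Uba7 by 0.36 relative to Ube2l6, each with an exact permutation p = 0.1. Isg15 and Ube2l6 were close, with FPKM ratios of 1.13, 1.41 and 1.21 in contact and 1.44, 1.4 and 1.32 in transwell libraries and a difference of -0.15 (exact permutation p = 0.3). Herc6 did not part from Isg15, Ube2l6 or Uba7 beyond the spread of its own replicates, and its difference from Uba7 was 0.04 (exact permutation p = 1).

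Within a group the members did not all vary together. On the log2 scale, transwell replicate 1 lay above its group mean for Isg15 by 0.21 and for Ube2l6 and Usp18 by 0.15, and below it for Uba7 (-0.08) and Herc6 (-0.43). Transwell replicate 2 showed the reverse, with Isg15 at -0.13, Ube2l6 at -0.15 and Usp18 at -0.13, beside Uba7 at 0.06 and Herc6 at 0.34. The deviations of a gene cancel out within a group, so this reversal is in part built in. Nor is the split particular to the members. In transwell replicates 1, 2 and 3, Herc4 had 6.78, 10.14 and 8.43 FPKM, and Rps27a had 318.04, 255.99 and 271.03 FPKM. Transwell replicates 1 and 2 also differed the most of all replicate pairs over the genes at large, with a chi-square of 22.75 per degree of freedom. In the contact group the largest deviations were those of Herc6, -0.16 in replicate 1 and 0.14 in replicate 3, and of Isg15, -0.12 in replicate 1 and 0.15 in replicate 2.

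**Figure D3:**
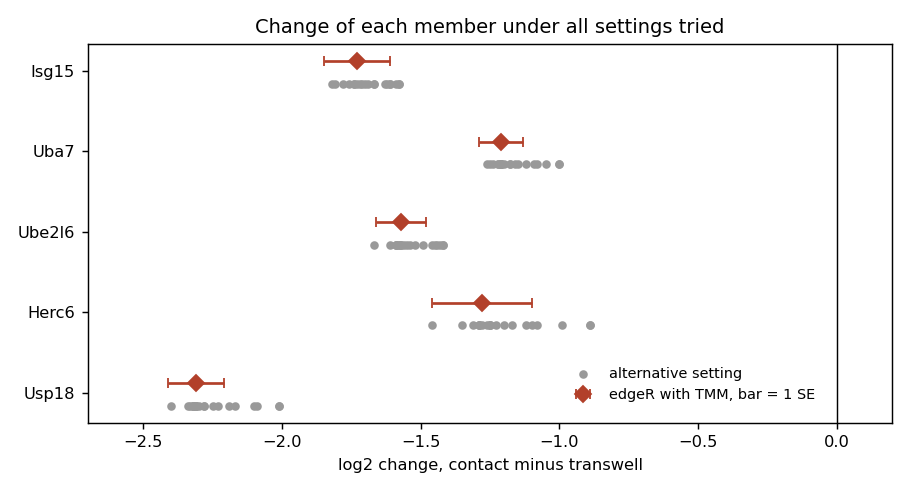
Log2 change of each member, contact minus transwell: the diamond and bar are the edgeR estimate and 1 SE, and the grey points are the 20 alternative settings. Every point lies below 0, from -2.4 for Usp18 to -0.89 for Herc6.

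Beyond the core cascade, 11 other genes tied to ISG15 were followed. They were the ligases Trim25 and Arih1, proteases that can react with ISG15 (Usp2, Usp5, Usp13, Usp14), Skp2, linked to USP18 turnover in human cells, the USP18 partners Ifnar2 and Stat2, and Itgal and Itgb2, whose products form LFA-1, a receptor for free ISG15. Of 10 tested, 4 (40%) fell and 1 rose, where 16.1% of all genes tested fell and 21.4% rose. The median log2 change was -0.07, close to the 0.03 of all genes tested. Stat2, which brings USP18 to the receptor, had 11.29, 12.19 and 12.19 FPKM in contact against 22.97, 24.72 and 23 FPKM in transwell libraries (log2 change -1.10 ± 0.07, adjusted p = 3.6e-06). Ifnar2 had 52.12, 50.82 and 55.96 FPKM in contact against 67.18, 61.82 and 63.64 FPKM in transwell libraries (-0.39 ± 0.07, adjusted p = 0.0024). Both partner genes were thus lower along with Usp18, and the difference in size from Usp18 was not tested.

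Trim25, itself an interferon-induced gene, fell to 34.4 FPKM in contact, against 49.1 FPKM in transwell libraries (-0.63 ± 0.06, adjusted p = 4.5e-05). The LFA-1 chains went in opposite directions. Itgal rose (90.7 FPKM in contact and 50.9 FPKM in transwell libraries, log2 change 0.72 ± 0.09), while its partner Itgb2, which other leukocyte integrins share, fell (254 FPKM in contact and 433 FPKM in transwell libraries, -0.89 ± 0.08). Among the proteases with a wider range, Usp5 (log2 change -0.11, adjusted p = 0.28), Usp14 (-0.03, adjusted p = 0.82) and Usp2 (0.46, adjusted p = 0.12) did not pass the threshold, nor did the ligase gene Arih1 (0.05, adjusted p = 0.82). Usp13 was too low to be tested, with at most 0.04 FPKM in any library.

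The genes that carry the type I interferon signal to the members were lower in part. Of 13 listed, 12 were tested, and 6 (50%) fell in the edgeR test, where 16.1% of all genes tested fell and 21.4% rose. None of the 12 rose, also none at an unadjusted p under 0.05 and none with DESeq2. The median log2 change was -0.22, beside 0.03 over all genes tested. Irf7, an interferon-induced factor that drives further interferon genes, had 27.53, 28.87 and 25.98 FPKM in contact against 105.61, 103.14 and 95.35 FPKM in transwell libraries (-2 ± 0.07, adjusted p = 2.9e-07). Stat2 fell as given above, and so did Irf9, which joins it in ISGF3 (11.4 FPKM in contact and 16.2 FPKM in transwell libraries, -0.63 ± 0.08). Tyk2, a receptor kinase gene, was called lower by 0.26 on the log2 scale, a call that 11 of 20 alternatives ended.

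The receptor chain gene Ifnar1 (log2 change -0.03, adjusted p = 0.80), the kinase gene Jak1 (-0.10, adjusted p = 0.38) and the factors Irf3 (0.02, adjusted p = 0.86) and Irf1 (0.02, adjusted p = 0.91) did not pass the threshold. Socs1, another feedback inhibitor of the pathway, had 2.1, 2.37 and 2.23 FPKM in contact and 2.98, 1.84 and 2.17 FPKM in transwell libraries (adjusted p = 0.51), and Socs3 did not pass either (adjusted p = 0.19), though 5 alternatives called it higher. Usp18 was thus the 1 feedback gene of these 3 called in the edgeR fit. Transcripts of the ligand gene Ifnb1 were close to absent, with 2 counts in contact replicate 2, 1 count in transwell replicate 3 and none in the other libraries, so no difference was detectable at this depth.

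Relatives of the members, listed as serving other modifiers, went both ways. The list is not free of ISG15 ties. Ube2e1 (log2 change -0.35, called lower) and Ube2e2 (0.3, not called) also carry ISG15 terms in the deposited annotation. Of 95 tested, 17 rose, 11 fell (11.6%) and 67 did not pass the threshold, with a median log2 change of 0.01. Over all genes tested, 21.4% rose and 16.1% fell, so the relatives were not called more often than genes at large. Among them, only the cell cycle gene Ube2c (2.31 ± 0.26) was called with a change of at least 2-fold. The count of calls fell to 15 without contact replicate 1, 17 without contact replicate 2 and 14 without transwell replicate 3. Among 9 genes of other E1 enzymes or their subunits, 1 rose and 3 fell, and Uba1, the E1 gene of ubiquitin, fell by 0.39 on the log2 scale (59.4 FPKM in contact and 71.8 FPKM in transwell libraries, adjusted p = 0.0015). Of 17 tested ubiquitin-like modifier genes, 2 rose and 2 fell, with Map1lc3a, an autophagy modifier, at 0.87 ± 0.14. Of 32 other E2 genes 9 rose and 4 fell, and of 33 other ubiquitin protease genes 5 rose and 2 fell, with Usp1 at 0.66 ± 0.11.

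The other 4 HERC genes, Herc1 to Herc4, were not called with edgeR. At an unadjusted p under 0.05, 1 of them was lower, as was 1 with DESeq2 (Herc2, log2 change -0.34, adjusted p = 0.03). Herc1 had -0.32, Herc2 -0.32, Herc3 -0.21 and Herc4 -0.06 on the log2 scale, and without transwell replicate 1 Herc1 (-0.46), Herc2 (-0.39) and Herc3 (-0.37) were called lower. Without transwell replicate 2, Herc1 (-0.19), Herc2 (-0.26) and Herc3 (-0.11) were nearer to no change and not called, so these calls hang on single libraries.

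**Figure D4:**
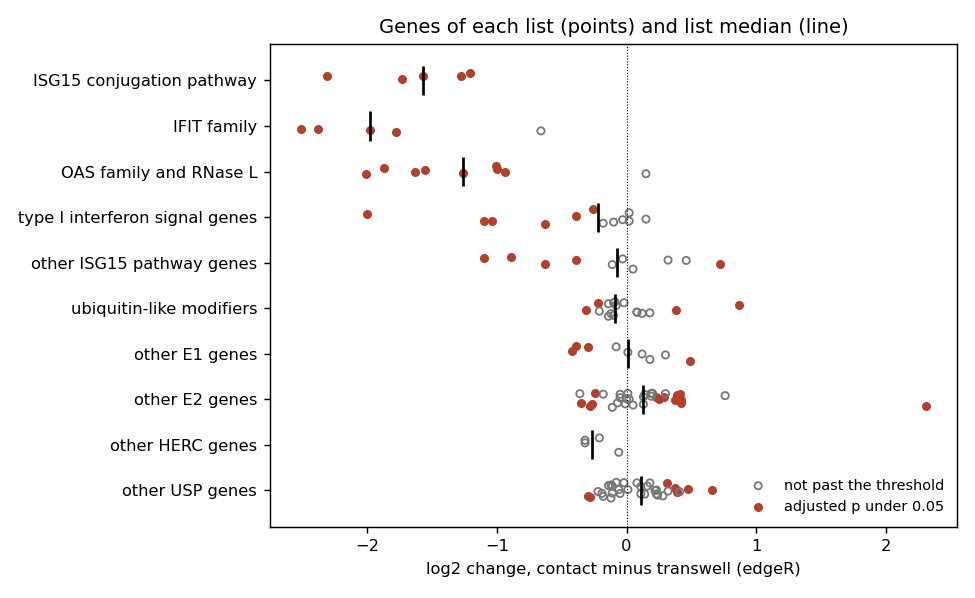
Log2 change of the tested genes in each list, contact minus transwell, as points (filled where the edgeR adjusted p is under 0.05) with the list median as a line. The 5 members lie between -2.31 and -1.21, and the 5 kinds of relatives have medians between -0.27 and 0.13.

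Of the 2 other antiviral families set beside the members, the IFIT genes, which bind foreign RNA, fell in 4 of 5 tested cases with a median log2 change of -1.98, led by Ifit3 (-2.51 ± 0.10) and Ifit3b (-2.38 ± 0.15), which are near-identical copies. The OAS genes, which sense double-stranded RNA and activate RNase L, fell in 8 of 9 tested cases with a median of -1.26, led by Oasl1 (-2.01 ± 0.09). The members' range lies within that of the called genes of these families, which ran from -2.51 to -0.94. Of all genes tested, 16.1% fell. The difference between the families was not tested.

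The genes whose centred log2 CPM (counts scaled by library size) over the 6 libraries ran closest to Isg15, by root mean square distance among 6205 genes of mean FPKM at least 5, were H2-T22 (distance 0.065), Gstm2 (0.083), Akr1b8 (0.092), Oas3 (0.123) and Ccl5 (0.127). H2-T22 encodes a non-classical MHC class I chain, Gstm2 a glutathione transferase, Akr1b8 an aldo-keto reductase and Ccl5 a chemokine. Ube2l6 was at 0.127 too. Closest to Usp18 were Zbp1 (0.099), a nucleic acid sensor, Cfb (0.122), a complement factor, Phf11b (0.129), Ifit3 (0.158) and Oasl1 (0.163). No other member was nearer to Usp18 than Isg15, at 0.303. H2-T22, Phf11b and Ifit3 have close copies in the genome, which makes their values uncertain, and with 6 libraries in 2 groups the distance reflects mostly the difference between the groups.

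Of 20 protein-coding genes that flank the members, 2 on each side, 12 were tested. Of these, 2 rose, 2 fell and 8 did not pass the threshold, where 21.4% of all genes tested rose and 16.1% fell. Next to Isg15, Agrn, whose product organises synapses, lies 1.94 kb away and had 6.75 FPKM in contact and 4.97 FPKM in transwell libraries (log2 change 0.33, adjusted p = 0.0221), a call that 3 of 20 alternatives ended. Inka1, 0.163 kb from Uba7, had a log2 change of -0.42 (adjusted p = 0.103), and Traip, 3.23 kb away on the other side, rose (1.21 ± 0.23) at a low level. Both falls were next to Usp18, in the transporter genes Slc6a13 (0.91 FPKM in contact and 1.74 FPKM in transwell libraries, -1.05 ± 0.24) and Slc6a12 (3.8 FPKM in contact and 8.61 FPKM in transwell libraries, -1.30 ± 0.13), 29.3 and 72.2 kb away.

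The libraries held 18173192 to 22563835 counts. Macrophage markers were present in all of them, with 16 of 16 detected, and 5 rose and 5 fell. Their summed level was 17600 to 19400 FPKM in contact and 18700 to 20000 FPKM in transwell libraries. Most of that sum was Lyz2, at 12200 FPKM in contact and 13300 FPKM in transwell libraries. Single markers moved more, given as contact against transwell means. Fcgr1 (31.6 against 109 FPKM) and Adgre1 (578 against 1230 FPKM) fell, and Cd14 rose (1340 against 442 FPKM). Epithelial markers, 28 of 28 detected, summed to 978 to 1720 FPKM in contact and 9.03 to 9.86 FPKM in transwell libraries, where Cldn4 and Grhl2 had no count, and 22 of 23 tested rose. They took 0.266%, 0.397% and 0.228% of the counts of contact replicates 1, 2 and 3, and 0.00421% to 0.00555% in transwell libraries. The 16 macrophage markers took 2.89%, 2.7% and 3.01% of the counts of the same contact libraries. These are shares of the listed marker genes, not of cells or of all RNA of a cell type. Contact replicate 2, with the highest epithelial share, lay above its group mean for Isg15 (0.15) and Herc6 (0.02), below it for Uba7 (-0.1) and Ube2l6 (-0.03), and at it for Usp18 (0.00). Neutrophil markers rose in 4 of 9 tested cases and fibroblast markers in 6 of 8, where 21.4% of all genes tested rose. The part of other cells in the members' change was not tested. Calls over all genes split into 57.1% higher and 42.9% lower, with 73.1% higher when edgeR scaled by library totals. In limma on log2(FPKM + 1), 72.8% of calls were higher, and 41.2% when those values were quantile-normalized. Each member was called lower in all of these fits.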

How the data were processed

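Per the file headers, the authors deposited for each library unnormalized counts of reads in every Ensembl gene, and FPKM beside them. The deposited FPKM was checked against counts scaled by exonic length and library total and matched to within 1% for 99.93% of values with a count above 100. GRCm38 and mm10 are named in the submitters' processing notes. The sources used here do not give the aligner, counter or strand setting. Only 1472 of 52073 shared gene IDs had the same start and end as in GENCODE M21 (GRCm38), so positions come from GENCODE by ID, and sequences from RefSeq (GRCm38.p6).

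Genes were filtered with filterByExpr (minimum count 10), scaled with TMM and tested with edgeR 4.0.16 (quasi-likelihood, two-sided, Benjamini-Hochberg over 14113 genes, R 4.3.3). The SE is the absolute log2 change over the square root of F. Pairs of members were compared by exact permutation of log2 CPM ratios (prior count 2). Alternatives used limma 3.58.1 and DESeq2 1.42.0. Replicates differed by a chi-square of 5.895 to 22.75 per degree of freedom, beyond sampling noise. On simulated counts for 14113 genes, 47 of 67 genes changed 2-fold and 63 of 66 changed 4-fold were recovered. Besides these only 67 genes were changed, by 1.5-fold, far fewer than the 5286 called in the data. The recovery rates therefore need not hold for this comparison.

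Members and lists were chosen with earlier results of these data known. Named beside the members were up to 4 called genes of each list by size of change and up to 2 against its main direction, flanking genes, and the 5 genes nearest in pattern to Isg15 and to Usp18. Genes of the pathway and signal lists outside that rule, and Ube2l3 and the HERC genes, were named after their values were seen. Lymphocyte markers (1 of 2 tested fell) and dendritic cell markers (1 of 4 rose, 1 fell) were also counted. Figures were drawn with matplotlib 3.10.9. A gene that the rule takes is not reported here.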

Additional observations from a re-analysis of the deposited data

How the results depend on the processing

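All 5 members were called lower in contact under each of 20 alternatives (other scalings and filters, limma on FPKM with 3 pseudocounts, DESeq2, the replicate block, each library left out). Log2 changes ran from -2.4 to -2.01 for Usp18, -1.82 to -1.58 for Isg15, -1.67 to -1.42 for Ube2l6, -1.46 to -0.89 for Herc6 and -1.26 to -1 for Uba7, and the highest adjusted p was 0.021, for Herc6 in limma on log2(FPKM + 1) with all genes above 0. Library totals moved the median log2 change of all genes to 0.14, against 0.03 with TMM. Calls among relatives of the members ranged from 14 to 29 when 1 library was left out, against 28, with fewer libraries in the fit. Pairs of members with separate ratios numbered 6 to 8 of 10, against 6. Of the other named genes, 17 lost a call under some alternative and none reversed.

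Replicate numbers are shared by the groups, but deviations of same-numbered libraries correlated at -0.08, -0.45 and 0.06, and no library correlated best with its own number. With the replicate block 5124 genes were called, against 5286, and the members' log2 changes were -1.72 (Isg15), -1.21 (Uba7), -1.57 (Ube2l6), -1.25 (Herc6) and -2.31 (Usp18). Depth limited Ifnb1, Usp13 and Ifit1bl2, which were too low to test.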
